A study of Homo sapiens with 2 samples.

Results

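Epithelial-mesenchymal transition (EMT) was followed here through 10 genes, taken from 19061 genes that could be named on the arrays. They are the transcription factors ZEB1, ZEB2, SNAI1, SNAI2, TWIST1, TWIST2 and GRHL2 and the marker genes VIM, FN1 and S100A4. A probe was assigned to them when its RefSeq accession belonged to one of these symbols, which gave 14 probes and 24 spots that were not controls. The RNA came from SBC-3, a human cell line of small-cell lung cancer (SCLC) that grows attached to the dish. One culture was labelled #1 siHOTAIR, for an siRNA against the long noncoding RNA HOTAIR, and the control was labelled siGFP, for an siRNA against green fluorescent protein. The Cy3-labelled RNA of each culture went onto 1 Agilent SurePrint G3 Human GE array, and both arrays lay on 1 slide. Neither condition was replicated, so no P-value was computed, and effects of the siRNA, of the culture and of the array cannot be told apart. The repeated spots of a probe are technical, and in bulk RNA fewer cells of a type and less RNA per cell cannot be told apart.

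EMT is the change in which epithelial cells lose their junctions and polarity and take on the shape, motility and matrix of mesenchymal cells. SNAI and ZEB proteins are zinc-finger repressors that bind E-boxes with the core CAGGTG and silence epithelial genes such as CDH1, whereas TWIST proteins are basic helix-loop-helix (bHLH) factors that bind E-boxes as dimers. GRHL2 works on the opposite side, as an activator of epithelial junction genes that restrains ZEB1. VIM encodes an intermediate filament protein, FN1 an extracellular matrix glycoprotein and S100A4 a calcium-binding protein, and these are widely used as mesenchymal markers.

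Sequence before the start sites is shown for a few genes, since SNAI and ZEB proteins are known to bind this E-box in front of epithelial genes, which are described further on. The sequences are from RefSeq (GRCh38.p14), run 5′ to 3′ on the strand of the gene and cover the 250 bases before an annotated start site. Capitals mark CAGGTG, which reads CACCTG on the other strand, and the cAMP response element TGACGTCA. The window of ZEB1 with the most matches is chr10:31318966-31319215 on the plus strand, S100A4 is chr1:153545807-153546056, FN1 is chr2:215436069-215436318 and CLDN7, an epithelial claudin gene that serves as the contrast, is chr17:7262479-7262728, all 3 on the minus strand.
ZEB1: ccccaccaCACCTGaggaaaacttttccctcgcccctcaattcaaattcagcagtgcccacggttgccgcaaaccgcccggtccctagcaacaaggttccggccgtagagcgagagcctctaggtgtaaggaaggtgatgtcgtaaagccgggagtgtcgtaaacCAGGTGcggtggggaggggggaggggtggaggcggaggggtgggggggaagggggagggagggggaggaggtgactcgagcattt
S100A4: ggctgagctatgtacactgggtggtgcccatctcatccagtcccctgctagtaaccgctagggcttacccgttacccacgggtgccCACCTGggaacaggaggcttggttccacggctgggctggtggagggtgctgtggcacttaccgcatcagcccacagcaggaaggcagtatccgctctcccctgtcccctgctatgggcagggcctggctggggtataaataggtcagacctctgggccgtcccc
FN1: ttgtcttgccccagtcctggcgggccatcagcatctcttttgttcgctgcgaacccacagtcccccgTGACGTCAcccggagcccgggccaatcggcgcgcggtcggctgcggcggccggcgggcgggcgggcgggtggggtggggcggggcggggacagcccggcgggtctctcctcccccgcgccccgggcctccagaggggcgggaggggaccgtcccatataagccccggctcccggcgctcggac
CLDN7: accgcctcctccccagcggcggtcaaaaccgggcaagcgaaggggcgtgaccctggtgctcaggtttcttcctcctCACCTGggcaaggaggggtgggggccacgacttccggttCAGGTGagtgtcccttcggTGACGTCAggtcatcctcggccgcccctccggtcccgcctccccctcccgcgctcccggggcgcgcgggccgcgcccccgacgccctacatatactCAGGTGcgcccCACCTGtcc

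Both strands were searched for CAGGTG in windows of 300 bases, from 250 before to 50 after each start site. The motif stood in 20.6% of 35116 windows and, counting any window of a gene, in 24.1% of 27305 genes. Of the 10 genes, 6 had an entry (FN1, S100A4, TWIST2, VIM, ZEB1 and ZEB2), and the motif was found in S100A4 and in 2 of the 7 windows of ZEB1. In the windows printed, the match of S100A4 begins at -164 from the start site and those of ZEB1 at -242 and -85. FN1, TWIST2, VIM and ZEB2 had no match in this window, and FN1 held TGACGTCA, which is in 1.85% of all windows. Among epithelial junction and surface genes, 11 of the 13 with an entry held CAGGTG, and CLDN7 had 5 matches in the window printed in part above. CDH1 and EPCAM, of the same list, had no entry. Of 17 mesenchymal genes with an entry 2 held the motif, AXL and LOX. Of 17 S100 genes other than S100A4 with an entry, 9 held the motif. A match is a run of letters and not a measured site of binding.

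Signal over background decided which of the 10 genes could be compared. The level of a probe is the log2 of its processed signal relative to the 75th percentile of its array (a signal of 650.3 for #1 siHOTAIR and of 629.9 for siGFP), and a log2 ratio is #1 siHOTAIR minus siGFP. The scanner software marks a spot as well above background or not. On both arrays 9 probes of 7 genes were well above background, 1 probe (FN1) was so on the siGFP array alone, and 4 probes, which are all those of TWIST1 and GRHL2, were on neither. None of the 24 spots was saturated or marked as an outlier. Over all probes, 52.1% and 55.3% were well above background on the #1 siHOTAIR and siGFP arrays. HOTAIR itself, measured by 1 spot, was 107.8 after #1 siHOTAIR and 243.9 after siGFP (log2 ratio -1.22, measurement SD 0.21), and the reference genes ACTB (-0.05 and -0.02) and GAPDH (-0.00) stood near 0.

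**Figure D1:**
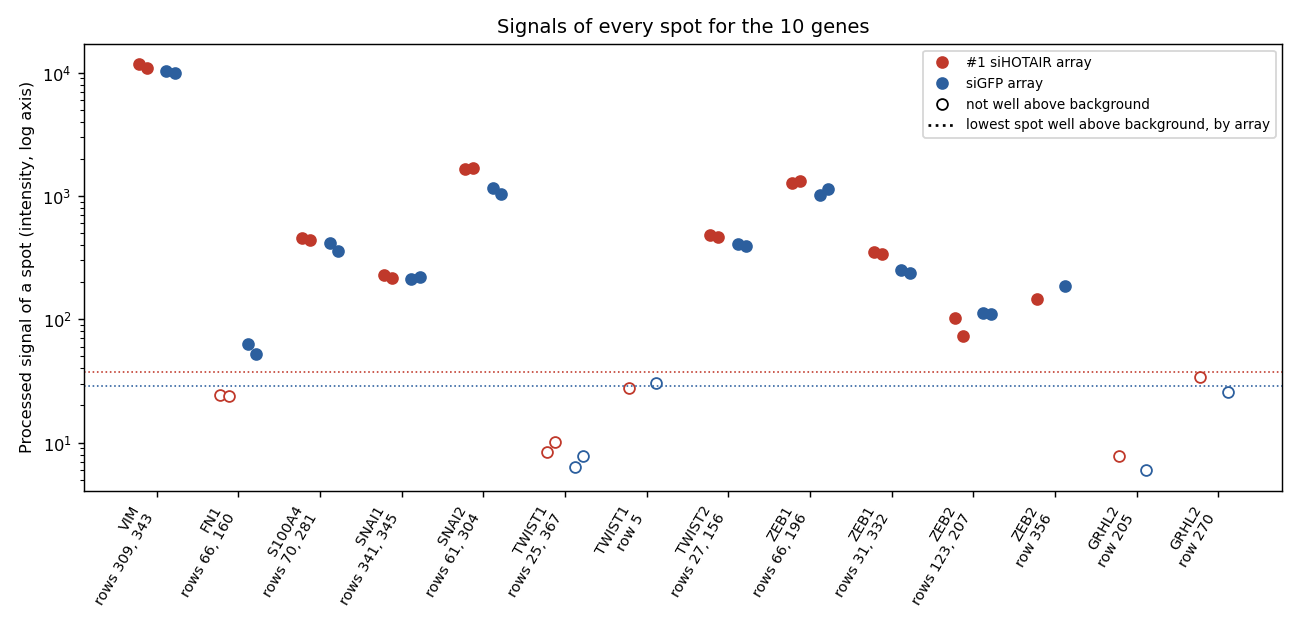
Processed signal (intensity, log axis) of each of the 24 spots of the 10 genes, by probe and by the row of the spot on the array; open circles were not well above background, and dotted lines give the dimmest spot that was still well above background (37.3 for #1 siHOTAIR, 28.6 for siGFP). The FN1 spots are filled for siGFP alone, and those of TWIST1 and GRHL2 are open on both arrays.

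Large differences were few among the 10 genes. Of the 10 probes compared, 1 differed by at least 2-fold, which was FN1 and was lower after #1 siHOTAIR. FN1 entered the comparison through the siGFP array alone. Its #1 siHOTAIR side is therefore dim by construction, and the count carries no direction of its own. Over all 24117 probes compared, 7.4% differed that much in either direction and 4.1% in the lower direction. At 1.5-fold the count was again 1 of 10, beside 18.2% of all. None of the 9 probes on both arrays reached 2-fold, beside 3.03% of 21428. Their log2 ratios ran from -0.41 to 0.57, with 6 above 0 and 3 below, and their median was 0.18 against 0.03 for all probes on both arrays. Their median size without sign, 0.22, was close to that of all probes, 0.21.

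Smaller differences often exceeded the spread between repeated spots, in these genes and across the arrays. The measurement SD was taken from probes with 10 spots at a like signal and covers error within an array only. By this measure 6 of 9 probes differed by more than 2 SD, beside 44.6% of all probes on both arrays. The spots of the arrays did not overlap for 7 of the 8 probes with 2 spots, with 6 higher and 1 lower after #1 siHOTAIR, beside 72.1% of 4639 such probes. These shares describe 2 arrays, not 2 conditions. The wider error estimate of the scanner software was exceeded by 5 of the 9, beside 47.3% of all probes on both arrays.

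**Figure D2:**
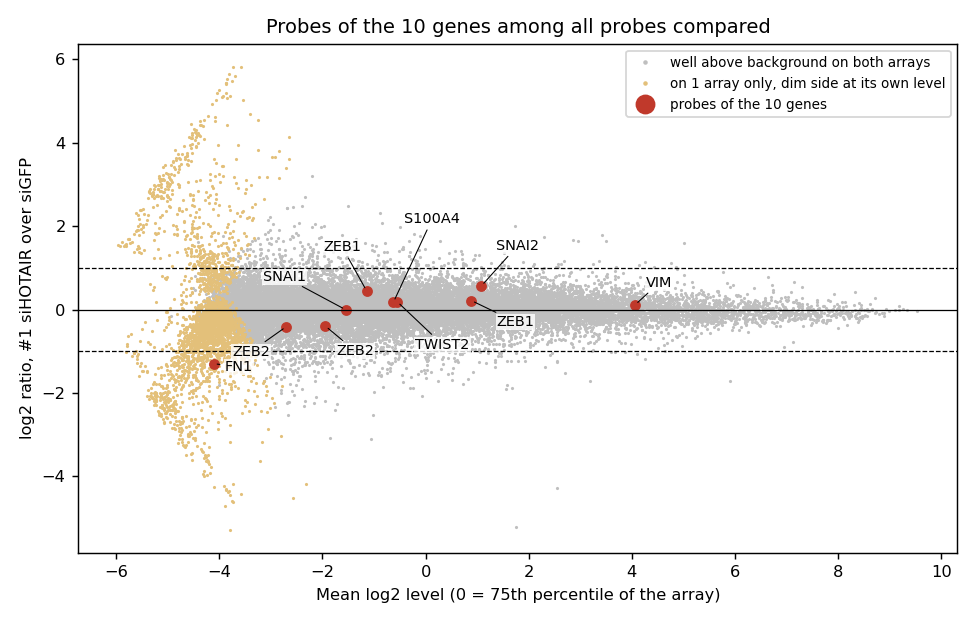
Log2 ratio of #1 siHOTAIR over siGFP against the mean log2 level (0 is the 75th percentile of the array) for the 24117 probes compared, with the 10 probes of the EMT genes in red. FN1 lies at the dim end at -1.30, where ratios spread most, and the others lie between -0.41 and 0.57, inside the dashed lines at 2-fold.

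ZEB1 was higher and ZEB2 lower after #1 siHOTAIR, each by both of its probes. These paralogous repressors bind E-boxes through zinc-finger clusters at either end of the protein. The ZEB1 probe in rows 66 and 196 of the array read 1265 and 1323 after #1 siHOTAIR and 1023 and 1137 after siGFP. The other ZEB1 probe, in rows 31 and 332, read 350.8 and 336.7 against 249.6 and 239.1. For both probes the spots of one array lay above those of the other. The log2 ratios were 0.22 ± 0.06 and 0.45 ± 0.09 (measurement SD, 1 array per condition), which are 1.16-fold and 1.36-fold, and at least as large a difference was seen in 49.6% and 20.9% of all probes on both arrays. The antisense transcript ZEB1-AS1 was well above background on neither array (9.59 against 31.5), so it has no fold.

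ZEB2 was measured near the dim end. Its probe with 2 spots read 102.5 and 73.1 after #1 siHOTAIR and 111.8 and 111.4 after siGFP. The second probe, a single spot, read 147.4 against 187.8. Both siGFP values of the first probe lay above both #1 siHOTAIR values, although those 2 spots differed from each other by 0.49 on the log2 scale. The log2 ratios were -0.41 ± 0.19 and -0.40 ± 0.21 (measurement SD), or 1.33-fold and 1.32-fold lower. Both ratios were smaller without background correction (-0.15 and -0.19) and with normexp (-0.15 and -0.20), and the first was -0.65 when its spot in row 123 was left out. Differences of that size were seen in 23.7% and 25.2% of all probes on both arrays.

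SNAI2, which encodes the repressor Slug, had the largest ratio of the 9 probes measured on both arrays. Its spots read 1669 and 1680 after #1 siHOTAIR and 1161 and 1035 after siGFP, so the #1 siHOTAIR spots lay above both of the others. The signal was 1.48-fold higher (log2 ratio 0.57 ± 0.06, measurement SD), and the ratio was 0.48 and 0.65 when each spot was set against its own position on the other array. It was 8.84 times the measurement SD. Among all probes on both arrays 13.4% differed by at least as much, and 9.84% did among the 2296 probes with a mean level within 0.5 on the log2 scale. SNAI1, the gene of the related repressor Snail, read 228.2 and 216.3 against 213.8 and 218.6. The SNAI1 spots overlapped between the arrays, and the log2 ratio was -0.01 ± 0.09 (measurement SD).

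Of the TWIST genes TWIST2 alone was measured. It read 484.9 and 463.6 after #1 siHOTAIR and 410.2 and 396.8 after siGFP, higher on the #1 siHOTAIR array in both spots (log2 ratio 0.19 ± 0.09, measurement SD). A ratio of this size was common, being reached by 55.5% of all probes on both arrays. TWIST1, its close paralog, had 2 spots of one probe at 8.43 and 10.2 against 6.39 and 7.81 and 1 spot of another at 27.8 against 30.4, and none was well above background. Its level therefore has an upper limit alone and no fold is given.

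GRHL2, the epithelial factor of the set, was well above background on neither array. One probe read 7.81 after #1 siHOTAIR and 5.96 after siGFP, and the other read 33.9 and 25.8. The nominal log2 ratios, 0.34 and 0.35, equal the offset of probes seen on neither array, whose median was also 0.34 over the whole design (median signals 9.34 and 7.32). No difference in GRHL2 was detectable at this signal.

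Among the markers, FN1 differed most and was measured least well. Both of its spots were dim after #1 siHOTAIR (24.4 and 23.7, not well above background), and both were well above background after siGFP (62.6 and 52.3). With the dim side raised to the lowest signal well above background on its array, called its bound, FN1 was 1.58-fold lower after #1 siHOTAIR. With the dim side at its own level the log2 ratio was -1.30 ± 0.20 (measurement SD), and the scanner software gave an error of 0.62. The value depends on the background correction. Without correction the log2 ratio was -0.31, and with the normexp correction it was -0.36. FN1 passed the filter through the siGFP array alone, so its #1 siHOTAIR side is dim by construction. FN1 is also among the genes that the study listed from these same arrays, so its direction here is not independent evidence.

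VIM and S100A4 differed little. The VIM spots were bright, at 11715 and 10878 after #1 siHOTAIR and 10342 and 9901 after siGFP, and did not overlap (log2 ratio 0.11 ± 0.05, measurement SD). The VIM difference was 8.06%, and 71.7% of all probes on both arrays differed at least as much. S100A4 read 456.1 and 441.0 against 414.0 and 357.7, again higher after #1 siHOTAIR in both spots (log2 ratio 0.18 ± 0.09, measurement SD). Its ratio fell short of 2 measurement SD, and 57.9% of all probes on both arrays reached it.

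**Figure D3:**
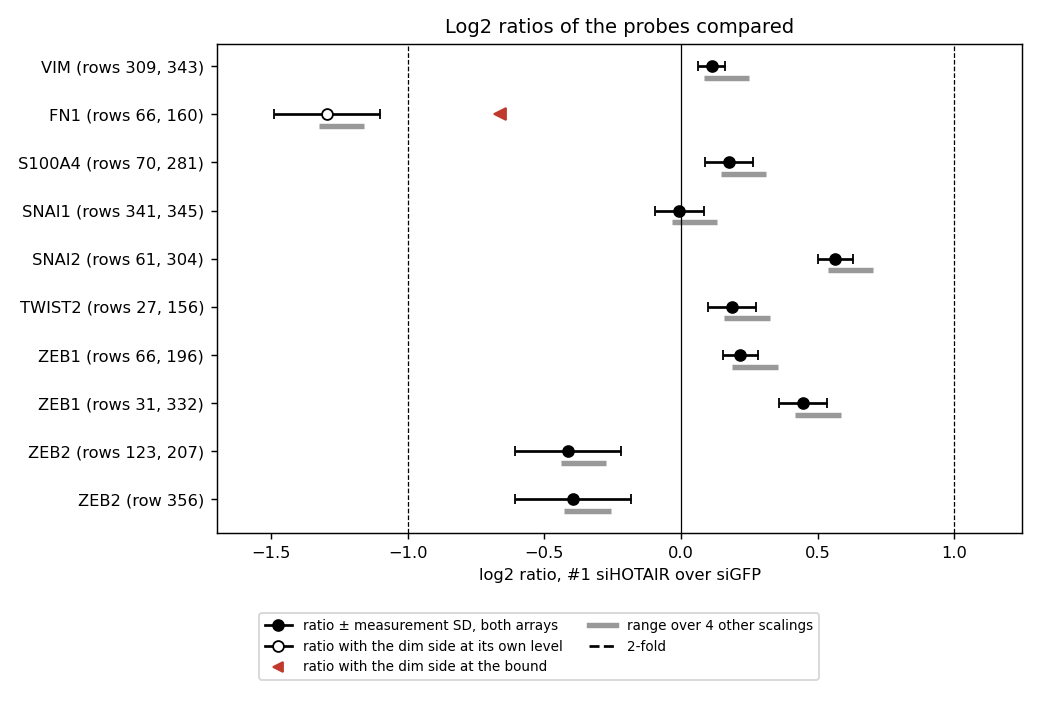
Log2 ratio of #1 siHOTAIR over siGFP for the 10 probes compared, with error bars of 1 measurement SD and, in grey, the range over 4 other scalings of the arrays; the open circle and the triangle give FN1 with its dim side at its own level and at the bound. SNAI2 and both ZEB1 probes lie above 0, both ZEB2 probes and FN1 below, and SNAI1 is at 0.

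Epithelial junction and surface genes were measured in part, and CDH1 and EPCAM were not among those with a usable value. CDH1, the gene of E-cadherin, has 10 spots, and none was well above background on either array (7.48 to 10.05 after #1 siHOTAIR and 5.74 to 12.0 after siGFP, with 2 spots marked as outliers after siGFP). EPCAM, an epithelial surface glycoprotein, read 8.59 and 9.83 against 81.5 and 7.72, so that a single bright spot set its value and no fold is given. Of 26 probes for epithelial junction and surface genes 16 could be compared, with 1 higher and 1 lower by at least 2-fold, both of them through 1 bright spot (CLDN3 and EPCAM), and a median log2 ratio of 0.01. Across all probes compared, 7.4% differed that much in either direction. Junction genes that were measured included DSP, encoding desmoplakin (0.05 and -0.09), JUP, encoding plakoglobin (0.15), and CLDN7, whose spots read 144.3 and 102.4 against 107.0 and 95.0 (0.22 ± 0.19, measurement SD). Larger ratios on both arrays went both ways in this list. SPINT2 was at -0.61 ± 0.19 and CDH3 at -0.50 ± 0.19, whereas CLDN4 was at 0.46 ± 0.08 and TJP1 at 0.35 ± 0.09.

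Most epithelial regulators other than GRHL2 were dim too, and ESRP2 and KLF5 were the ones measured on both arrays. ESRP2 read 93.2 against 104.9 (log2 ratio -0.22 ± 0.09, measurement SD, 10 spots) and KLF5 112.3 against 143.6 (-0.40 ± 0.19). Differences of that size were seen in 49.3% and 24.8% of all probes on both arrays. In the list of epithelial transcription factors and splicing regulators 8 of 15 probes were on neither array, OVOL2 among them (7.94 against 6.04). ESRP1, an RNA-binding protein that sets epithelial splicing, was well above background after siGFP alone and read 39.9 against 47.1, a log2 ratio of -0.28 with a measurement SD of 0.28. The 7 probes compared all had ratios below 0, 5 of them on the siGFP array alone, with a median of -0.45, which became -0.28 with dim signals at their bounds, -0.17 without background correction and -0.21 with normexp. GRHL1, a paralog of GRHL2, read 24.3 against 51.0 by one probe (1.41-fold lower at its bound) and 33.8 against 57.1 by the other (1.58-fold lower at its bound). A probe seen on the siGFP array alone has a dim #1 siHOTAIR side by construction, so these counts carry no direction of their own. Of the 7 genes for keratins, the intermediate filaments of epithelia, KRT5, KRT14 and KRT20 were on neither array. The others had ratios on both sides of 0. KRT7 was at 0.08, KRT8 at 0.10 by its probe with 2 spots and KRT18 at -0.44 by its single-spot probe. A second KRT8 probe, well above background on the siGFP array alone, read 31.5 against 54.0. A second KRT18 probe, also well above background on the siGFP array alone, read 16.2 against 36.1. Its log2 ratio was -1.20 with the dim side at its own level, and its bound was 1.00-fold. KRT19 was above background after #1 siHOTAIR alone, by 1 of its 2 spots, and read 35.5 and 43.7 against 31.3 and 23.3. Its log2 ratio was 0.50 with the dim side at its own level, beside a scanner software error of 0.52. At its bound KRT19 was 1.33-fold higher, and its siGFP side is dim by construction.

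Among probes on both arrays, mesenchymal genes held the largest differences in the lists read. TAGLN, encoding the actin-binding protein transgelin, read 116.5 and 154.8 after #1 siHOTAIR and 732.7 and 771.8 after siGFP by one probe (log2 ratio -2.53 ± 0.14, measurement SD) and 304.0 against 1233 by the other (-2.07 ± 0.11). ACTA2, the smooth muscle actin gene, read 511.1 and 528.2 against 1570 and 1678 (-1.69 ± 0.08). Both genes encode parts of the contractile apparatus. COL5A2, a fibrillar collagen, was 1.57-fold lower at its bound, well above background after siGFP alone as FN1 was. With dim signals at their own level, these 4 of 23 probes compared were the ones that differed by at least 2-fold, and the list's median was -0.09. TAGLN was counted by both of its probes, and COL5A2 entered through the siGFP array alone. Over all probes compared, 7.4% differed that much in either direction and 4.1% in the lower direction. CDH2, the gene of N-cadherin, read 9515 and 9467 against 8684 and 8955 by one probe and 1907 against 2223 by the other, with log2 ratios of 0.06 and -0.27 that differ in sign. COL1A1 was at 0.96, on the opposite side from FN1 and COL5A2. COL1A2, the gene of the other type I collagen chain, was at -0.04 ± 0.02 (measurement SD, 10 spots). COL5A1 was at -0.57 ± 0.08 by its probe on both arrays.

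Among genes around the SNAI, ZEB and TWIST proteins no probe compared reached 2-fold, beside 7.4% of all probes compared. The lists are too short to set such counts apart from that share. Their corepressors (CTBP1, CTBP2, HDAC1, HDAC2, KDM1A and others) were all measured, with 0 of 14 probes at 2-fold and a median of 0.04. Other EMT transcription factors had 11 of 21 probes compared, 0 at 2-fold and a median of -0.01, and 3 probes of HMGA2 gave ratios from -0.37 to 0.40. Genes of SNAI1 turnover, which mark Snail for degradation or shield it, had 0 of 8 probes at 2-fold and a median of 0.32. BTRC, the ubiquitin ligase subunit that recognises phosphorylated Snail, stood highest there, at 392.6 and 407.9 against 206.1 and 224.8 (0.85 ± 0.09, measurement SD). The genes named in these lists were chosen after their values had been seen.

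The ID genes that were measured had ratios above 0. With 1 array per condition, a likeness of ratios between genes has no meaning. ID proteins lack a DNA-binding domain and sequester bHLH factors, and they are targets of bone morphogenetic protein (BMP) signalling. ID1 read 1168 and 1075 after #1 siHOTAIR and 712.0 and 752.8 after siGFP. ID2 read 17677 and 17443 against 11196 and 11278 by one probe. ID3 read 557.9 and 601.4 against 358.2 and 373.0. In each case both #1 siHOTAIR spots lay above both siGFP spots. Spots of the arrays did not overlap, in either direction, for 72.1% of all probes with 2 spots on both arrays. The 4 probes of these 3 genes had log2 ratios from 0.57 to 0.63, and ID4 was on neither array. Of these probes 0 were at 2-fold, beside 3.03% of all probes on both arrays. Differences at least as large were seen in 10.4% to 13.3% of all probes on both arrays. Under all alternatives run the median of the ID probes lay between 0.56 and 0.75.

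Of the ligands, receptors and SMAD proteins of the TGF-beta and BMP pathway, which drive EMT in many epithelia, 23 of 36 probes were compared. Of these 0 reached 2-fold, beside 7.4% of all probes compared. Of the 22 on both arrays 16 were above 0, beside 54.2% of all such probes, and the median of those compared was 0.20, which became 0.07 without background correction and 0.10 with normexp. Of the SMAD genes, SMAD4 was at 0.28 ± 0.04 and SMAD3 at -0.20 ± 0.04 (measurement SD, 10 spots each). The ligand gene TGFB1 was at 0.28 ± 0.03 (measurement SD, 10 spots), the receptor genes TGFBR2 at 0.25 ± 0.06 and BMPR1A at 0.38 to 0.76 over 3 probes, and SKI, a nuclear repressor of SMAD proteins, at 0.71 ± 0.09.

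**Figure D4:**
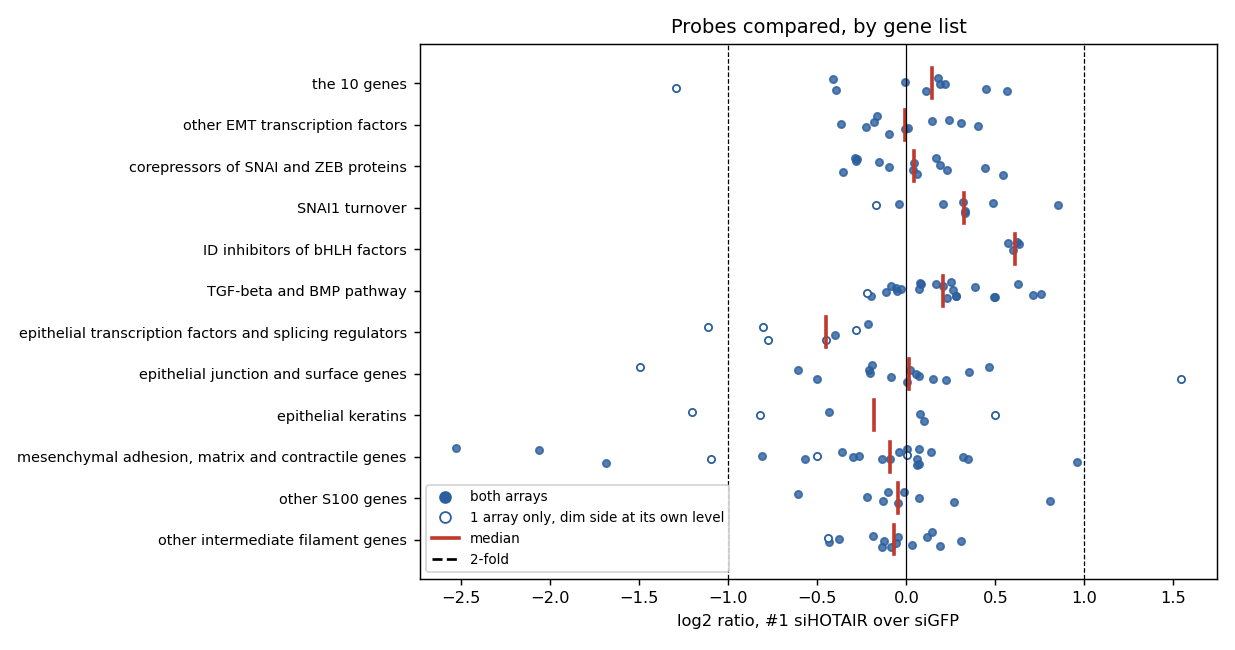
Log2 ratio of #1 siHOTAIR over siGFP for each probe compared in the 10 genes and in 11 lists of related genes, with the median of each list as a red bar; open circles were well above background on 1 array only. The ID probes lie near 0.6, and the lowest points are the TAGLN and ACTA2 probes.

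The cell type was checked against its markers. Of 12 neuroendocrine genes, which mark most SCLC, 7 were on neither array, INSM1 and SYP among them. NEUROD1 (log2 ratio -0.85) and ENO2 (-0.36) were on both, and CHGB and NCAM1 were above background by a single bright spot each after #1 siHOTAIR. CHGA, encoding chromogranin A, read 75.4 and 69.1 against 7.57 and 13.7 and was 2.44-fold higher after #1 siHOTAIR at its bound. CHGA, CHGB and NCAM1 passed the filter through the #1 siHOTAIR array alone. Their siGFP side is therefore dim by construction, and they carry no direction of their own. Of 6 genes known from non-neuroendocrine SCLC 5 were on both arrays, YAP1 (-0.10), MYC (0.07), REST (-0.10), HES1 (0.07) and WWTR1 (-0.39). Of 8 fibroblast markers COL1A1 alone was measured, and PDGFRA, PDGFRB, DCN, LUM and THY1 were well above background on neither array. Of 9 leukocyte probes 4 were compared, with CD68 at 0.63 ± 0.19, PTPRC at 0.75 ± 0.27 by a single-spot probe and CD14 at -0.17 ± 0.19 (measurement SD). A second PTPRC probe, above background after siGFP alone by 1 of its 2 spots, read 12.0 against 20.7, and the other PTPRC probes were on neither array. Of 7 endothelial probes 1 was compared, CDH5 at -0.05. The part of these in the differences given above was not tested.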

How the data were processed

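RNA of #1 siHOTAIR- and siGFP-transfected SBC-3 cells was read on 1 array each. The submitters' processing notes name Agilent Feature Extraction 10.10.1.1. Values deposited as processed signal are an intensity that this software had corrected for background and slide trends, with no normalization between the arrays by the authors. In the study's own pipeline, GeneSpring GX was run with a 2-fold change, a P threshold and gene ontology analysis, and the last 2 were not repeated here.

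Log2 signals were scaled to the 75th percentile of the non-control spots of each array, and spots of a probe without outlier marks were averaged (Python 3.11.15, numpy 2.4.6, pandas 2.3.3). Probes entered the comparison if 50% or more of their spots stood well above background in either condition. Where that held on 1 array only, the bound sets the dim side to the lowest spot well above background on its array, or to its own signal if higher. Some brighter spots were not marked well above background, and the bound holds for the processed signal alone, so it is not a strict lower limit. Counts and medians use the dim side at its own level unless a bound is named. The measurement SD came from probes with 10 spots in 6 classes of signal. Steps were tested on simulated data. Precision is limited by the number of arrays and by signal over background.

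Accessions were matched to RefSeq names of GRCh38.p14 (58.5% of probes named), used for names only, since the array files follow another build. The normexp correction (limma 3.58.1 in R 4.3.3, offset 50) and the uncorrected signal used the median of the pixels. Further alternatives were quantile normalization, the median of probes on both arrays, spike-in RNA, no scaling, a stricter and no filter on dim probes, the deposited value table floored at 10, dim signals at their bounds, 1 probe per gene, spots in rows 1 to 144 left out, and thresholds of 1.5-fold and 3-fold. The scanner error in place of the measurement SD was added after the data were seen.

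The 10 genes and the lists were chosen with earlier results of these data known. Named beside them were HOTAIR, ACTB, GAPDH, CDH1, EPCAM, CDH2, ESRP1 and OVOL2 whatever their values, and per list up to 4 genes with the largest difference of at least 2-fold on both arrays and up to 2 with the largest bound of at least 2-fold. Every other gene was named after its values were seen.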

Additional observations from a re-analysis of the deposited data

How the results depend on the processing

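No paired analysis was possible because each condition had 1 array. The count of probes of the 10 genes at 2-fold, 1 (FN1), was 0 with dim signals at the bound, with every spot required well above background on both arrays, with the median signal without background correction, with normexp at an offset of 50, and at 3-fold. It was 1 under every other alternative. The log2 ratio of FN1 ran from -1.33 to -0.31, and that of SNAI1 from -0.03 to 0.13, changing sign. The other 8 probes kept their sign under all 7 alternatives of scaling, correction, values and position that were run on single probes, with SNAI2 from 0.48 to 0.70, ZEB1 from 0.17 to 0.35 and 0.34 to 0.58, and ZEB2 from -0.65 to -0.15 and -0.43 to -0.19. The median of the probes compared lay between 0.11 and 0.28, and the number beyond 2 measurement SD between 4 and 7. Spike-in scaling raised the median of all probes from 0.01 to 0.15 and turned the split of probes at 2-fold from 795 higher and 989 lower into 1025 and 781. With it the median of the mesenchymal list rose to 0.05. No replicate culture or array was analysed here, so variation between cultures was not measured, and levels of TWIST1 and GRHL2 are limited by background.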

Other observations

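Families related to the markers were read as well, with genes chosen for mention after their values were seen. Of the other S100 genes 9 of 21 probes were compared, with a median log2 ratio of -0.05. Of these 0 differed by at least 2-fold, beside 7.4% of all probes compared. S100P read 107.8 after #1 siHOTAIR and 59.6 after siGFP (0.81 ± 0.19, measurement SD). S100A10, the partner of annexin A2 at the cell membrane, read 1101 and 1627 (-0.61 ± 0.06), on the opposite side from S100A4.

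Other intermediate filament genes, the relatives of VIM, had 14 of 17 probes compared, 0 at 2-fold (beside the same 7.4%) and a median of -0.07. NES, the filament of neural progenitors, was at -0.05 and -0.06 by its 2 probes. The neurofilament genes NEFM (0.30 ± 0.09) and NEFH (0.19 ± 0.06 by the probe with 2 spots, and -0.38 ± 0.27 by the single spot) were present, and the 3 LMNA probes, for the nuclear lamins A and C, ran from -0.44 to -0.13.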
